A study of Mus musculus with 12 samples.

Results

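The change from embryonic stem cells (ESC) to neural progenitor cells (NPC) was examined in mouse cells labelled as Chd8 knockout (KO). The comparison used the 2 KO_NPC and the 2 KO_ESC libraries, 4 of the 12 libraries of the series, chosen by their labels. Their label is CHD8_KO, given in the series' design as CHD8-/-, with both copies altered. The ESC were grown in 2i, a medium with inhibitors that hold the cells in naive pluripotency, and the NPC were derived from ESC by differentiation in culture. Wild-type cells (WT) and heterozygous cells with 1 altered copy (HET, labelled CHD8_HET, CHD8+/-) were sampled in the same 2 cell types with 2 libraries each, and serve below only to show where the KO change differed. The labels do not say how many lines or clones carried a genotype, how Chd8 was altered, or whether replicates are separate cultures. The p-values therefore cover only how these libraries vary, and that variation may be technical. In bulk RNA, fewer cells of a type and less RNA per cell cannot be told apart.

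CHD8 is an ATP-dependent chromatin remodeller of the chromodomain helicase family that binds near the promoters of many active genes, and heterozygous loss of the human gene is a known cause of autism with enlarged head size. When naive ESC differentiate towards the neural lineage, the pluripotency network built around Pou5f1, Nanog and Klf4 is shut down, and regulators such as Sox1 and Pax6 and the intermediate filament nestin come on. The deposited values are given per transcript under UCSC-style identifiers, 55419 per library. Of these, 0 matched a gene name table used here, so pluripotency and neural markers, Chd8 itself and the cell type of each library could not be checked by gene. The results below are therefore for transcripts, and the transcripts of 1 gene are not independent of each other.

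The RNA of KO cells was spread over more transcripts in NPC than in ESC. Levels per length are given as TPM, the length-corrected share of a transcript that kallisto reports. A TPM of at least 1 was reached by 19897 and 18917 transcripts in the KO ESC libraries and by 21909 and 21790 in the KO NPC libraries, so the NPC libraries did not overlap the ESC ones. The 10 most counted transcripts held 29.4% and 40.2% of the estimated counts in KO ESC and 18.4% and 21.2% in KO NPC. With 2 libraries against 2 the smallest two-sided exact permutation p is 0.333. Over all genotypes, the 6 NPC libraries had more transcripts at 1 TPM and a smaller share of counts in the top 10 than the 6 ESC libraries, without overlap (two-sided exact permutation test, p = 0.00216 for each of the 2 measures, and 0.00216 after Benjamini-Hochberg adjustment). The direction depended on the limit: by transcripts with at least 1 estimated count, KO NPC had 349 fewer than KO ESC (a difference of -349), with the KO ESC libraries also the deeper ones, at 14220515 and 14766212 counts against 9089955 and 10813941.

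A single transcript, uc009vew.1 (2555 bases), was the most counted in every library. It took 19.7% and 27.4% of the counts in KO ESC and 10.6% and 13.3% in KO NPC. After scaling between libraries it fell in KO cells, with a log2 fold change of -1.36 (edgeR adjusted p = 0.0168), and in WT cells with -1.12 (edgeR adjusted p = 0.0366). In HET cells the value was -0.95 (edgeR adjusted p = 0.066).

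Differentiation of KO cells changed 3905 of the 30021 transcripts tested, 13.0% of them by edgeR at an adjusted p under 0.05. An unadjusted p under 0.05 was reached by 7866 (26.2%). KO NPC were the higher group for 1979 (6.59% of those tested) and the lower group for 1926 (6.42%). The rises were the larger changes. Called transcripts that rose had a median log2 fold change of 1.92, and 81.9% of them changed by more than 2-fold. Those that fell had a median of -1.34, and 66.6% changed by more than 2-fold. Some calls had no counts in one KO group, 123 of the rises and 113 of the falls. With these at their bound, 3 counts over the empty group, 15.1% of the rises and 11.2% of the falls were over 16-fold, and the medians were the same. Levels without a length correction are given as CPM, counts scaled to the effective library size. The transcripts that rose started from a median of 6.33 CPM in KO ESC and reached 26.6 in KO NPC, while those that fell went from 36.5 to 13.1 CPM. Among all tested transcripts the medians were 3.96 and 4.23 CPM.

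**Figure D1:**
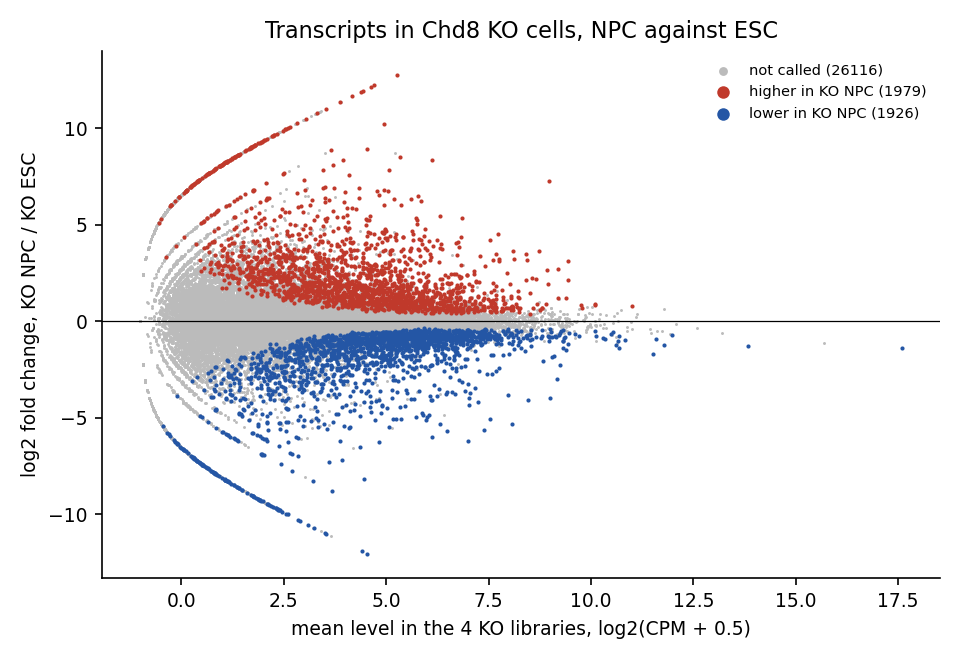
Each point is 1 of 30021 tested transcripts in KO cells, with its mean level in the 4 KO libraries as log2(CPM + 0.5) on the x axis and its fitted log2 fold change, KO NPC over KO ESC, on the y axis. The 1979 transcripts called higher are red and the 1926 called lower are blue, and the curved outer edges are transcripts with no counts in one of the 2 groups, whose fitted fold changes are no measure of size.

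The balance of rises and falls depended on the scaling. Rises were 50.7% of the calls with edgeR's TMM scaling, 53.0% with RLE scaling and 52.0% with DESeq2. They were 80.0% when limma was run on log2(TPM + 1) with no further scaling, where the median over all tested transcripts stood at 0.262 rather than 0 on the log2 scale. Directions given here are relative to the median transcript. Calling was also tied to abundance: 1.52% of transcripts with a mean under 1 CPM in the KO libraries were called, 16.7% of those from 5 to 20 CPM and 31.5% of those at 100 CPM and over. In the most abundant class 288 of 1513 transcripts fell and 188 rose (19.0% and 12.4%). From 20 to 100 CPM 787 of 5538 fell and 725 rose (14.2% and 13.1%). Rises outnumbered falls from 5 to 20 CPM (656 against 536, or 9.18% and 7.5% of the class). The same held from 1 to 5 CPM (364 against 269, or 3.73% and 2.76%), and under 1 CPM there were 46 of each.

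Over all tested transcripts the median absolute log2 fold change was 0.70, and the median absolute log2 difference of CPM + 0.5 was 0.34 between the KO ESC replicates and 0.32 between the KO NPC replicates. KO ESC and KO NPC values did not overlap for 57.5% of all tested transcripts. Among the called transcripts, which the test picks for a large change beside a small spread, the values were 1.63, 0.22 and 0.20. The number of calls depended on single libraries. Leaving out the first or the second KO ESC library gave 2033 or 2061 calls, and leaving out the first or the second KO NPC library gave 1587 or 2118. Of the 3905 calls, 1224 (31.3%) were made in the same direction in all 4 of these fits, 744 of them higher and 480 lower.

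The 4 transcripts with the largest fitted changes in KO had estimated counts that rounded to 0 in one KO cell type, written below as no counts. uc009pim.1 (5125 bases) had no counts in either KO ESC library and 78.2 and 72.3 CPM in KO NPC (mean 75.3 ± 4.16, SD, n = 2), at least 615-fold higher when 3 counts over the KO ESC group are taken as the floor (edgeR adjusted p = 0.00264). It also rose in WT, from 0.593 and 1.14 to 45.7 and 42.5 CPM (edgeR adjusted p = 0.00958), and in HET, from 0 and 1.51 to 43.3 and 70.3 CPM (edgeR adjusted p = 0.00678). Its levels were thus low in every ESC library and high in every NPC library, and KO NPC held the highest values.

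The other named rise, uc009fbx.1 (6687 bases), went from no counts in KO ESC to 42.8 and 60.0 CPM in KO NPC (mean 51.4 ± 12.2, SD, n = 2), at least 420-fold higher on the same floor (edgeR adjusted p = 0.0154). In WT it went from no counts to 30.1 and 33.6 CPM (edgeR adjusted p = 0.0236). In HET it stood at 0 and 2.85 CPM in ESC and at 17.9 and 20.3 CPM in NPC (edgeR adjusted p = 0.105). NPC libraries were above ESC libraries in each genotype, but the call in KO was lost without any 1 of the 4 KO libraries (edgeR adjusted p = 0.056 to 0.0644).

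Of the 2 named falls, uc009mzd.2 (8373 bases) had 35.7 and 47.1 CPM in KO ESC (mean 41.4 ± 8.08, SD, n = 2) and no counts in KO NPC, at least 297-fold lower on a floor of 3 counts over the KO NPC group (edgeR adjusted p = 0.00209). WT cells showed the same loss, from 60.8 and 41.4 CPM to no counts (edgeR adjusted p = 0.00185). HET NPC kept 15.1 and 11.4 CPM, below the 18.0 and 51.6 CPM of HET ESC (edgeR adjusted p = 0.159), and the test of the KO change against the HET change gave an edgeR adjusted p of 0.34. The HET libraries were thus the ones in which this transcript was still counted after differentiation.

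uc012hpq.1 (2463 bases) had 31.5 and 59.7 CPM in KO ESC (mean 45.6 ± 19.98, SD, n = 2) and no counts in KO NPC, at least 328-fold lower (edgeR adjusted p = 0.0229). That call ended without any 1 of the KO libraries (edgeR adjusted p = 0.0539 to 0.105). It stood at 51.7 and 32.8 CPM in WT ESC and at 0 and 5.08 CPM in WT NPC (edgeR adjusted p = 0.103). In HET it fell from 28.0 and 61.8 CPM to 0.0942 and 0 CPM (edgeR adjusted p = 0.0274).

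**Figure D2:**
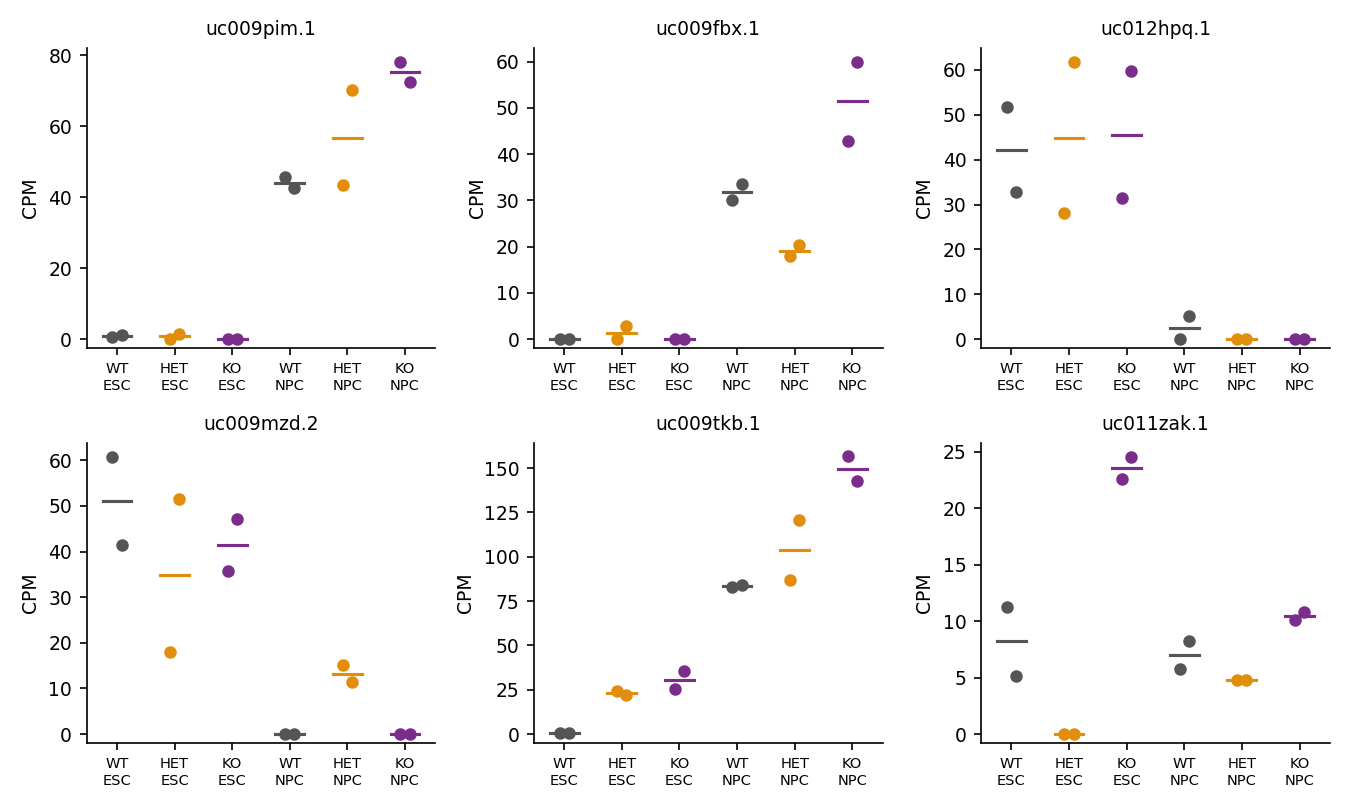
Level in CPM (y axis, linear) of the named transcripts in each of the 12 libraries by group (x axis), with points for libraries and a bar for the mean of 2. The KO libraries hold no counts of uc009pim.1 and uc009fbx.1 in ESC and none of uc012hpq.1 and uc009mzd.2 in NPC, while uc009tkb.1 is under 1 CPM in WT ESC alone and uc011zak.1 has no counts in HET ESC.

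Many more transcripts were counted in only 1 KO cell type. In all, 317 had at least 10 counts in both KO NPC libraries and none in KO ESC, of which 105 were called, and 342 had the reverse pattern, of which 325 were tested and 95 called (over all tested transcripts 6.59% were called higher and 6.42% lower). Most of them were modest in level, with a median of 34.3 and 30.8 counts per library in the group where they were counted. The same limits were met in WT by 55 of the 317 and 25 of the 342, and in HET by 51 and 31. As the transcripts were picked in KO, fewer matches elsewhere follow from the choice. Picked in WT by the same limits, 626 transcripts were counted in NPC only and 160 in ESC only, and picked in HET 436 and 283. These limits are raw counts, not corrected for depth. KO ESC libraries were deeper than KO NPC libraries, as were HET ESC (12884157 and 13432274 counts) against HET NPC (9945753 and 9731881). In WT the NPC libraries were deeper (12392099 and 13150215 against 9062447 and 9840544). The part of depth in these numbers was not tested. At least 1 WT or HET library of the cell type that was empty in KO held counts for 243 of the 317 and for 290 of the 342. kallisto shares reads among similar transcripts of a gene, so an absent transcript need not mean an absent gene.

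Calls among long transcripts were more often rises, and calls among shorter ones more often falls. Most transcripts of every length class were not called. Of the 360 tested transcripts over 10000 bases, 79 were higher in KO NPC and 15 lower, or 21.9% and 4.17%. From over 3000 to 10000 bases 1148 were higher and 741 lower (8.76% and 5.65% of 13105). From over 1000 to 3000 bases 689 were higher and 996 lower (4.81% and 6.96% of 14312, against 6.59% and 6.42% of all tested). From over 300 to 1000 bases 62 were higher and 168 lower (2.95% and 8.0% of 2100). Up to 300 bases 1 was higher and 6 were lower among 144 (4.17%, below the 6.42% called lower over all tested), and calls in this class fell to 0 without KO ESC replicate 2 or without KO NPC replicate 1. The median log2 fold change over all tested transcripts of a class went from -0.71 for the shortest to -0.25, -0.07, 0.12 and 0.33 for the longest. Single KO libraries moved these values. Without KO ESC replicate 2 the first 3 were -0.45, -0.14 and 0, and without KO ESC replicate 1 the third was 0. For transcripts of over 3000 to 10000 bases the median was 0.03 without KO NPC replicate 1 and 0.05 without KO NPC replicate 2. The same order was seen in WT, from -0.97 to 0.49, and in HET, from -0.44 to 0.60.

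Relative to the median of all tested transcripts, the longest class stayed above 0 and the class up to 300 bases below 0 in every fit but the one without a low-count filter, where the shortest class had a median of 0. The class from over 300 to 1000 bases stood at -0.25 with edgeR and at -0.07 relative to all transcripts with limma on log2(TPM + 1). There, with the median of all transcripts above 0, calls in it were mostly rises (252 against 142), as were those from over 1000 to 3000 bases (1868 against 627). In counts, transcripts of over 3000 to 10000 bases held 32.6% and 26.0% of KO ESC libraries and 40.3% and 37.9% of KO NPC libraries. Without uc009vew.1 the shares were 40.6% and 35.9% against 45.1% and 43.7%, still without overlap. The length kallisto subtracted from transcripts over 5000 bases to get their effective length, which follows the fragment length of a library, was 175 and 174 bases in KO ESC and 181 and 180 in KO NPC. Its part in the length pattern was not tested.

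**Figure D3:**
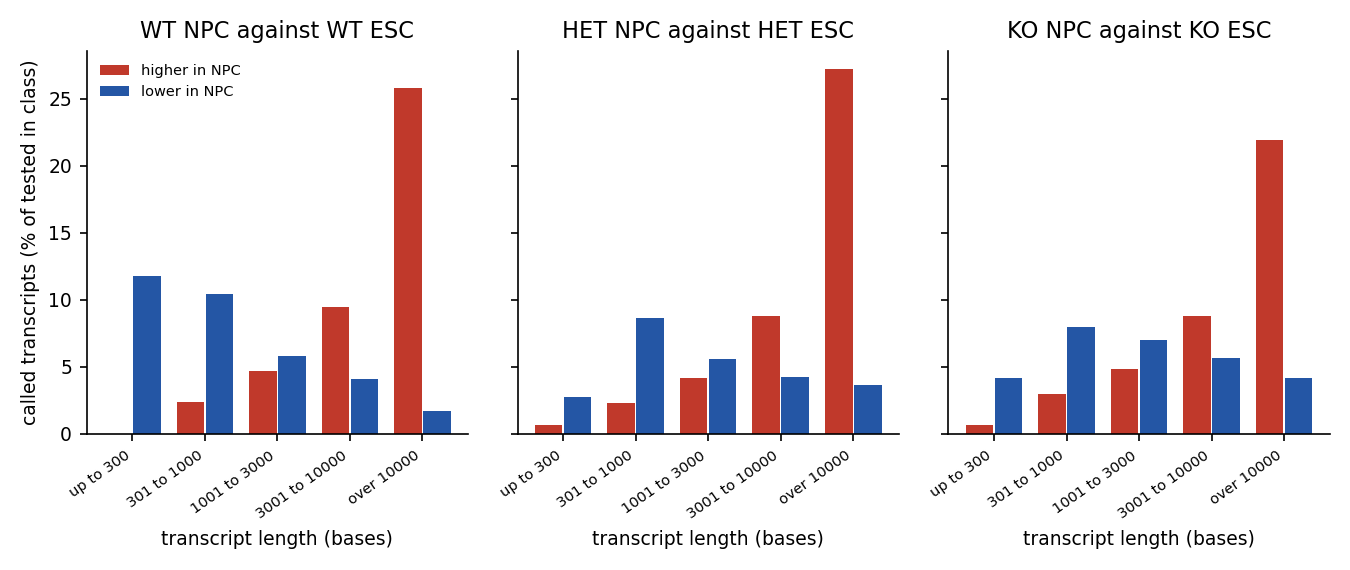
Percentage of tested transcripts called higher (red) or lower (blue) in NPC than in ESC (y axis) by transcript length in bases (x axis), in 3 panels for WT, HET and KO. In KO the share called higher grows from 0.694% up to 300 bases to 21.9% over 10000 bases.

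Of the 3905 KO calls, 2220 were made in the same direction in WT, 2487 in HET and 1938 in both. The fold changes of each genotype came from its own libraries. The spread behind all the tests was estimated over the 12 libraries together, so the lists of calls are not independent. The overlap depended on the fit: it was 1117 of 3174 KO calls with WT without WT NPC replicate 2, 1283 of 3187 without WT NPC replicate 1, and 575 of 2468 with only the compared libraries in the fit. Of the 1979 rises, 1235 were called higher in WT (62.4% of the KO list and 60.2% of the WT list) and 1391 in HET (70.3% of the KO list and 73.5% of the HET list), where 6.83% and 6.30% of all tested transcripts were called higher. Of the 1926 falls, 985 were called lower in WT (51.1% and 61.5% of the 2 lists) and 1096 in HET (56.9% and 70.7%), against 5.33% and 5.16% of all tested. In both other genotypes 1112 rises and 826 falls were called. The KO rises had a positive log2 fold change in WT in 96.9% of cases and in HET in 98.8%, and the KO falls a negative one in 93.0% and 97.5%. Over all 30021 tested transcripts the log2 fold changes of KO correlated with those of WT at r = 0.357 and with those of HET at r = 0.383. Among the 10442 with a mean of at least 10 CPM, r was 0.765 and 0.817. These are given as a description across transcripts, which are not independent replicates.

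**Figure D4:**
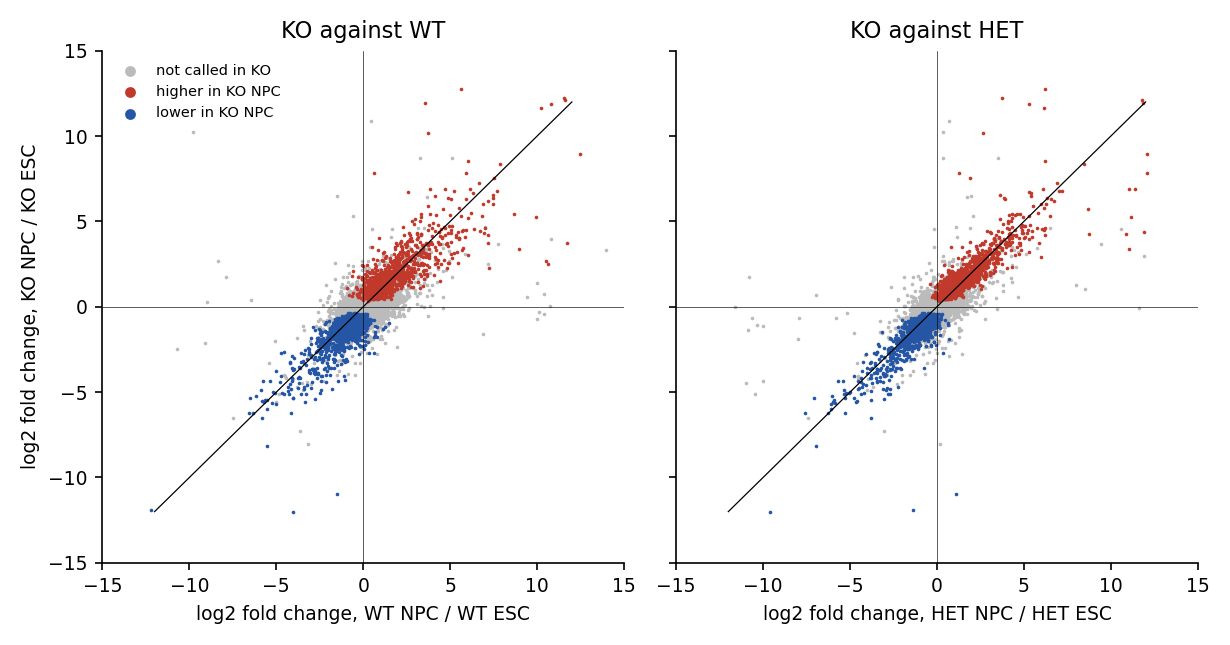
Log2 fold change from ESC to NPC in KO (y axis) against WT (left, x axis) and HET (right, x axis) for transcripts with a mean of at least 10 CPM over the 12 libraries. Points called higher in KO NPC are red, those called lower are blue, and the line marks equal changes (r = 0.765 for WT and r = 0.817 for HET over all the plotted points).

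Neither WT nor HET cells made the call for 465 of the KO rises (23.5%) and 671 of the KO falls (34.8%). Over all tested transcripts 12.2% were called in WT and 11.5% in HET, in either direction. A call in KO alone is no test of a difference. When the KO change was tested against each other change by edgeR, 109 of the 465 and 161 of the 671 had an unadjusted p under 0.05 against both. The choice of these transcripts favours a low p there. Many of the transcripts without a WT call still moved the same way. For the 744 rises not called in WT, the medians were 1.70 in KO and 0.63 in WT (log2), and 91.7% of them were above 0 in WT. The 941 falls that were not called in WT had medians of -1.27 and -0.49, and 85.7% were below 0 in WT. As these transcripts were picked by a call in KO and none in WT, the choice raises their KO medians in size. It also pulls their WT medians towards 0. On transcripts picked in HET cells alone, the size of the change was close in KO and WT. The 1892 transcripts called higher in HET had a fitted median of 1.69 in KO and 1.61 in WT, and over the 4 pairs of an NPC and an ESC library of a genotype the median ran from 1.52 to 1.61 in KO and from 1.44 to 1.55 in WT. The 1550 called lower in HET had -1.11 in KO and -1.06 in WT, with pairs from -1.13 to -1.01 and from -1.02 to -0.98. The ranges of KO and WT overlapped in both sets.

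The difference between the KO change and the change in another genotype was tested directly with an interaction term. Against WT, 1 of 30021 transcripts passed by edgeR (0.00333%), and it was lower. An unadjusted p under 0.05 was reached by 2750 (9.16%), of which 1630 had a lower and 1120 a higher change in KO. Against HET, 0 passed by edgeR, and 1659 (5.53%) had an unadjusted p under 0.05. Limma on TPM called 2 transcripts against WT and 0 against HET, and DESeq2 called 1005 and 354. Without WT ESC replicate 2, edgeR called 30 against WT.

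The transcript that passed was uc009tkb.1 (1545 bases). It stood at 25.2 and 35.4 CPM in KO ESC and at 157 and 143 CPM in KO NPC, with a fitted log2 change of 2.30 ± 0.21 (SE; edgeR adjusted p = 0.00062). In WT it went from 0.474 and 0.62 to 82.7 and 83.8 CPM, with a log2 change of 7.21 ± 0.30 (SE). KO cells thus held more of it than WT cells in both cell types. The KO change minus the WT change was -4.91 ± 0.37 on the log2 scale (SE; edgeR adjusted p = 0.0256). In HET it went from 24.4 and 22.0 to 86.6 and 121 CPM, a log2 fold change of 2.16, which differed from that of KO by 0.14 (SE 0.28, edgeR adjusted p = 1). Its interaction call was lost in 8 of the 12 fits that left out a library, with adjusted p of 0.0529 to 0.12 there, namely those without any 1 of the HET ESC, WT NPC and KO NPC libraries, without the second KO ESC library or without the first WT ESC library.

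Against HET the lowest p belonged to uc011zak.1 (4665 bases), which did not pass (edgeR adjusted p = 0.127). It went from 22.6 and 24.6 CPM in KO ESC to 10.1 and 10.9 CPM in KO NPC (log2 fold change -1.17, SE 0.38, edgeR adjusted p = 0.0975). In HET it rose from no counts in ESC to 4.8 and 4.79 CPM in NPC (edgeR adjusted p = 0.000872). In WT it stood at 11.3 and 5.17 CPM in ESC and at 5.73 and 8.28 CPM in NPC (edgeR adjusted p = 0.804). Only the HET rise, from empty ESC libraries, was thus called. The KO libraries were the only ones in which every ESC value lay above every NPC value, but that fall was not called.

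The KO change was also set against the WT and HET changes along the rows of the deposited tables. Tested transcripts with a mean of at least 2 CPM were divided along the rows into 199 blocks of 100, and block medians are given on the log2 scale after subtracting the median over blocks. Blocks 19 to 37 held 1900 transcripts in all (rows 5094 to 9690). In every one of them the median of the KO change minus the WT change was below 0 (from -0.44 to -0.01). The same held against HET (from -0.45 to -0.02), so the signed change from ESC to NPC was lower in KO. The KO change itself varied among these blocks, from -0.56 to 0.19. Its median over the 1900 transcripts was -0.27 (log2), with 0.02 in WT and -0.06 in HET. In KO 267 of the 1900 transcripts were called lower (14.1%) and 116 higher (6.11%), where 9.0% and 9.13% of all 19900 blocked transcripts were. In WT 143 were lower (7.53%, against 7.65% of all blocked) and 155 higher (8.16%, against 9.51%), and in HET 145 (7.63%, against 7.4%) and 146 (7.68%, against 8.81%).

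The levels of the 1900 transcripts show in which libraries they stood apart. Set against the median of all blocked transcripts, they stood at 0.20 and 0.17 in the KO ESC libraries and at -0.02 and -0.04 in the KO NPC libraries (median log2 deviation from a transcript's mean over the 12 libraries). In WT they stood at -0.16 and -0.19 in ESC and at -0.19 and -0.16 in NPC, and in HET at 0.09 and 0.11 in ESC and at 0.08 and 0.07 in NPC. Both KO ESC libraries thus lay above all others and the KO NPC libraries lay between WT and HET. The median levels of WT and of HET were close in ESC and NPC. By block the change ran from -0.16 to 0.22 in WT and from -0.25 to 0.27 in HET.

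The longer run described above lay below 0 in both differences, but not all of its blocks passed -0.25. A shorter run, blocks 132 and 133 (rows 35699 to 36245), passed -0.25 in both differences in each block. It stood at -0.08 and -0.13 in KO ESC and at -0.46 and -0.48 in KO NPC, against 0.31 and 0.27 in WT ESC and 0.10 and 0.12 in WT NPC. The KO change there had a median of -0.31, with 46 of 200 transcripts called lower and 7 higher. These are 23.0% and 3.5%, against 9.0% and 9.13% of all blocked transcripts. WT cells had a median of -0.06, with 35 lower (17.5%, against 7.65% of all blocked) and 13 higher (6.5%, against 9.51%). HET cells had a median of -0.19, with 33 lower (16.5%, against 7.4%) and 9 higher (4.5%, against 8.81%). Their levels were 0.16 and 0.14 in ESC and -0.01 and 0.02 in NPC. By the medians of the separate changes, block 132 alone fell about as far in WT (-0.362) as in KO (-0.382), with -0.238 in HET. The median of the differences taken per transcript was still -0.355 against WT and -0.352 against HET in that block. The replicates of a KO group differed little by block: 0 of 199 blocks passed 0.25 between the KO ESC or the KO NPC replicates, and 14 did so in KO against WT and 12 in KO against HET. The runs were picked on these same values, so they are given with no test, and no file states how its rows are ordered.

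**Figure D5:**
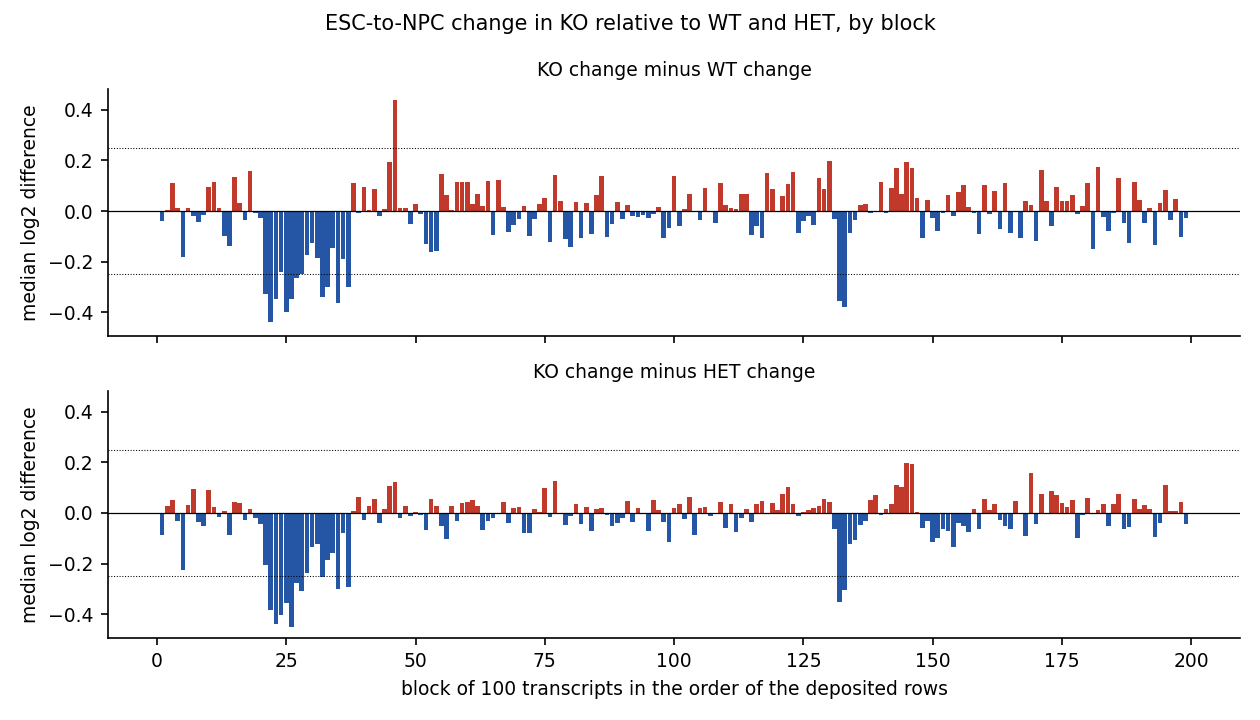
Median log2 difference between the ESC-to-NPC change in KO and that in WT (top) or HET (bottom) on the y axis, for 199 blocks of 100 transcripts in row order on the x axis, relative to the median block. Blocks 19 to 37 lie below 0 in both panels, and the dotted lines mark 0.25 in either direction.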

How the data were processed

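RNA was measured in 12 libraries, which per the labels' protocols are stranded SMARTer libraries of rRNA-depleted RNA. The deposited files hold kallisto's estimated counts (expected counts, not whole numbers), its TPM values and the lengths of 55419 transcripts. Cutadapt 1.16, kallisto and the mouse build mm9 are named per the submitters' processing notes, without a kallisto version. Total estimated counts ran from 9062447 to 14766212. Per-gene sums, marker lists and sequences were not used here, since 0 identifiers matched a name table.

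Transcripts with equal counts (to 2 decimals, total of at least 10) in every library were merged, 252 in 99 sets, and counts were rounded. edgeR 4.0.16 (R 4.3.3) used filterByExpr (minimum count 10), TMM and 1 quasi-likelihood fit to the 12 libraries, with 6 group means. Tests were two-sided, with Benjamini-Hochberg adjustment over 30021 transcripts at 0.05. The common dispersion was 0.35. Standard errors are the log2 fold change over the square root of F. DESeq2 1.42.0 and limma 3.58.1 (log2 of the deposited TPM plus 1, so fold changes of low transcripts are understated) were alternatives. At a given fold, low transcripts are called less often, and folds against an empty group cover counting error only.

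Named transcripts had an adjusted p under 0.05, a mean of at least 5 CPM in the compared libraries and no overlap, and the 2 largest rises and falls of a comparison were taken. Where none passed, the transcript of lowest p was given as not passing. uc009vew.1 was named as the most counted transcript, outside that rule. The comparisons, lists and rules were chosen with earlier results of these data known, and the block runs after their values were seen.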

Additional observations from a re-analysis of the deposited data

Results flagged for a closer look

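The change of uc009tkb.1 from ESC to NPC differed between KO and WT by -4.91 on the log2 scale in the edgeR interaction test (adjusted p = 0.0256). All 4 pairs of KO libraries rose less than all 4 pairs of WT libraries. The rule for naming it required this, and the pairs of a genotype share libraries. Among the 3905 KO calls, 11 were called in the opposite direction in WT, 8 of them lower and 3 higher in KO NPC. Their edgeR interaction tests had unadjusted p from 4.73e-05 to 0.000602 and adjusted p from 0.134 to 0.169, so none passed. Against HET, 3 transcripts were called in opposite directions, all lower in KO NPC and with means of 0.878 to 1.74 CPM over the 12 libraries. Their adjusted p in the edgeR interaction test ran from 0.127 to 0.391.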

How the results depend on the processing

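The directions of the 4 largest KO changes and of the KO-WT difference of uc009tkb.1 and the KO-HET difference of uc011zak.1 were kept in the alternatives run for them. For uc009vew.1 the results of the alternatives are not given here. The calls of uc009pim.1 and uc009mzd.2 held in all 20 alternatives, and those of uc009fbx.1, uc012hpq.1 and uc009tkb.1 in 16, 16 and 10. uc011zak.1 passed by DESeq2 (adjusted p = 4.48e-06) and in none of the 18 others that tested it. DESeq2 called 6971 transcripts in KO, 6571 in WT and 6674 in HET, shared 4009 KO calls with WT and 4478 with HET, and called 1005 and 354 interactions against WT and HET. Limma on log2(TPM + 1) called 6288 in WT, 5253 in HET and 2 interactions against WT, and shared 3540 KO calls with WT. With only the compared libraries in the fit, edgeR called 2468 in KO, 913 in WT, 1210 in HET and 0 interactions against WT, and shared 575 and 801 KO calls with WT and HET. At an adjusted p under 0.01, 1632 KO calls were left. Leaving out 1 library at a time gave 1587 to 4021 calls in KO, 1528 to 3219 in WT, 1554 to 3671 in HET, 1117 to 1986 shared with WT, 1249 to 2598 shared with HET, and 0 to 30 and 0 to 2 interactions against WT and HET; a group left with 1 library was taken to vary like the others. The edgeR fit with the replicate block called 3425 in KO and 0 interactions against WT (2587 at an unadjusted p under 0.05). The labels do not say what a replicate number shares, and the replicate differences of KO ESC and KO NPC correlated at 0.013. The gain in detected transcripts in KO NPC was 758 at 0.1 TPM, 1490 at 10 TPM and -349 at 1 count, against 2442.5 at 1 TPM, and the share of counts in the top 1000 fell by 9.3 percentage points. Thinning all libraries to 9062323 counts, chosen after seeing the data, gave 3721 KO calls. The cause of these shifts was not tested. In KO and the other genotypes, transcripts under 1 CPM are too shallow for a missing call to mean an absent change.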

Other observations

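KO calls of one direction often sat side by side in the deposited rows. Of the 1979 rises, 438 (22.1%) had a directly neighbouring row that was also called higher, where 8.28% of all tested transcripts had such a neighbour. Of the 1926 falls, 389 (20.2%) had a neighbour called lower, against 8.48% of all tested. Neighbours called in opposite directions were seen for 79 of the rises (3.99%) and 78 of the falls (4.05%). The files do not say which neighbouring rows belong to the same gene.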
